A study of Mus musculus with 3 samples.

Results

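Tcf7 and Ccr7 positive cells were compared between 2 single-cell libraries of mouse CD8 T cells, one from the tumour-draining lymph node (TdLN) and one from the blood (PBMC). A cell was kept when it had at least 1 UMI (a counted RNA molecule) of Tcf7 and of Ccr7, no UMI of the division genes Mki67, Top2a and Birc5, and UMIs of fewer than 3 of 6 interferon-response genes (Ifit1, Ifit3, Ifit3b, Rsad2, Usp18, Mx1). Of 11917 cells of both libraries that had 500 genes or more and no more than 10% of counts from mitochondrial genes, 4891 were kept. They were 3109 of 6265 TdLN cells and 1782 of 5652 PBMC cells. The cells were P14 cells, whose transgenic receptor recognises the GP33 epitope of lymphocytic choriomeningitis virus (LCMV) on H-2Db. They came from donors with a TCF-1-GFP reporter and had been transferred as naive CD44-GFP+ cells into C57BL/6 mice 8 days after subcutaneous B16.Gp cells, a B16.F10 melanoma line made to express the LCMV glycoprotein. Both tissues were sampled on day 16 after transfer, and the sort gate for both was CD45.1+CD44+CD8 T cells. A memory library from day 200 after acute LCMV infection was sorted on markers that included CD8, CD45.1, CD44 and CD127, without KLRG1, and the same rule kept 2292 of its 7003 cells. The labels give strain C57BL/6 and genotype WT for all 3 libraries and do not give the number, age or sex of the mice, or the tissue of the memory cells. Each group was 1 library, so no test between animals was possible, and tissue, preparation and library cannot be told apart. Cells of 1 library are not replicates.

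Tcf7 encodes TCF-1, a transcription factor that partners with beta-catenin and sustains naive, memory and stem-like CD8 T cells. Ccr7 is the chemokine receptor that brings T cells from blood into lymph nodes along CCL19 and CCL21 and holds them in the T cell zone. Cells leave the node towards sphingosine 1-phosphate through S1PR1. KLF2 drives transcription of S1pr1, and CD69 binds S1PR1 and takes it off the surface. A T cell that meets its antigen switches on immediate early genes (FOS, JUN and EGR factors), NR4A receptors, and the phosphatases and RNA-decay factors that end the signal. ID3, an inhibitor of E proteins, is a known target of EGR factors and marks memory precursors.

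Values are CPM, a gene's count scaled to the total of the summed kept cells, and the range after each value is its 95% interval for counting error alone. The kept TdLN cells held 32496833 counts, the kept PBMC cells 22317372. Median depth per kept cell was 9718 UMIs in TdLN and 12392 in PBMC. Cells left out by the rule had medians of 9612 and 5612 UMIs. The share kept was 49.6% (48.4–50.9) in TdLN, 31.5% (30.3–32.8) in PBMC and 32.7% (31.6–33.8) in memory cells. With every cell thinned to 4000 UMIs before the rule was applied, it was 26.7% (25.6–27.8), 18.3% (17.3–19.4) and 10.9% (10.2–11.7). Shallower cells were left out of these shares, 187 in TdLN, 379 in PBMC and 240 in memory. TdLN cells with at least 4 macrophage, monocyte or dendritic markers and at most 1 of 6 T cell genes (called macrophage-like), which should lack Tcf7, had a Tcf7 UMI in 6.9% (2.57–14.4) and a Ccr7 UMI in 4.6% (1.27–11.4) of 87 cells at a median of 2221 UMIs.

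The rule matched the cells in part only. Median Tcf7 was 3 UMIs per kept cell in both libraries, and median Ccr7 was 2 in TdLN and 4 in PBMC. Kept cells with exactly 1 Ccr7 UMI were 33.7% of the TdLN and 16.9% of the PBMC cells. Kept cells with exactly 1 Tcf7 UMI were 22.6% and 17.2%. Just outside the rule stood 927 TdLN and 852 PBMC cells that met the other conditions and had Tcf7 but no Ccr7 UMI, and 411 and 166 cells with Ccr7 but no Tcf7 UMI. At the Ccr7 limit, Ccl5 was at 866 CPM in TdLN cells with 1 Ccr7 UMI and 1261 CPM in those with none, while the PBMC values were 4729 and 25896 CPM. The PBMC cells on either side also differed in depth, with medians of 11377 UMIs inside and 6235 outside, against 9396.5 and 9173 in TdLN. Id3 was at 151 and 175 CPM across that limit in TdLN, and at 37 and 13.3 in PBMC. Ccl5 thus stepped less across the limit in the node than in the blood. Division genes removed 17.4% of the Tcf7 and Ccr7 positive cells in TdLN and 11.6% in PBMC, and interferon genes removed 8.25% and 5.58% more.

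The 8 T cell markers were Cd3d, Cd3e, Cd3g, Cd8a, Cd8b1, Trac, Tcf7 and Ccr7. All had UMIs in both libraries, and their summed level was 5053 CPM in TdLN and 4329 in PBMC. Tcf7 and Ccr7 were present by the rule itself and are part of both sums. The P14 beta segment Trbv13-3 made up 89.3% (87.4–91.1) of the beta V segment UMIs of the kept TdLN cells and 87.6% (85.4–89.6) of those of the kept PBMC cells. Among cells the rule left out it was 88.9% in TdLN and 51.4% in PBMC, so the kept blood cells carried the P14 segment more often than the rest of the blood library. TdLN and PBMC shared 17 barcodes, 2 of them among kept cells. Of 12 B cell markers, 12 had a UMI in TdLN and 6 in PBMC, with summed levels of 264 and 149 CPM, mostly Ighm. Ms4a1, Ebf1, Pax5, Fcmr and H2-Aa were at 0 in PBMC. Cd74, an MHC class II chaperone abundant in B cells and named here after its values were seen, was at 29.4 CPM in TdLN and 0.896 in PBMC. Platelet markers summed to 0.338 CPM in TdLN, with Pf4 and Ppbp among the 6 of 8 at 0, and to 18.6 CPM in PBMC. Macrophage, monocyte and dendritic markers summed to 241 and 182 CPM, mostly Ctss, with Csf1r, C1qa, C1qb, C1qc and Adgre1 at 0 in PBMC. NK and gamma delta markers summed to 509 CPM in TdLN and 378 in PBMC, mostly Trdc at 449 and 343 CPM. At least 2 of them had a UMI in 27.7% of kept TdLN and 20.8% of kept PBMC cells. Melanoma markers stayed under 1 CPM in both, with Tyr, Dct, Tyrp1 and Sox10 at 0.

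In the kept cells, immediate early, MAP kinase phosphatase and NF-kB feedback genes stood higher in the node. A smaller set of effector, S100 and histone genes stood higher in the blood. The comparison covered 4330 genes that reached 20 CPM on the side where they were higher. Of these, 87 (2.01%) were at least 2-fold higher in TdLN, 22 (0.508%) were lower by that much, and 109 (2.52%) differed either way. The 95% counting interval of the ratio lay wholly beyond 2-fold for 57 of the 87 and 18 of the 22. The median log2 ratio of all genes compared was 0.25, and 80.1% of them were higher in TdLN by some amount, so each ratio below reads against that shift. Ribosomal protein genes took 45.2% of the kept counts in TdLN and 49.4% in PBMC. TMM scaling, which brought the median to -0.00, gave 39 genes higher and 44 lower over the same 4330 genes, in place of 87 and 22. Under all 4 scalings tried (library totals, TMM, DESeq2 size factors, totals without ribosomal and mitochondrial genes), 39 of the 87 and all 22 stayed at least 2-fold apart. The plot of all genes compared shows the called genes at the rim of a narrow cloud.

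**Figure D1:**
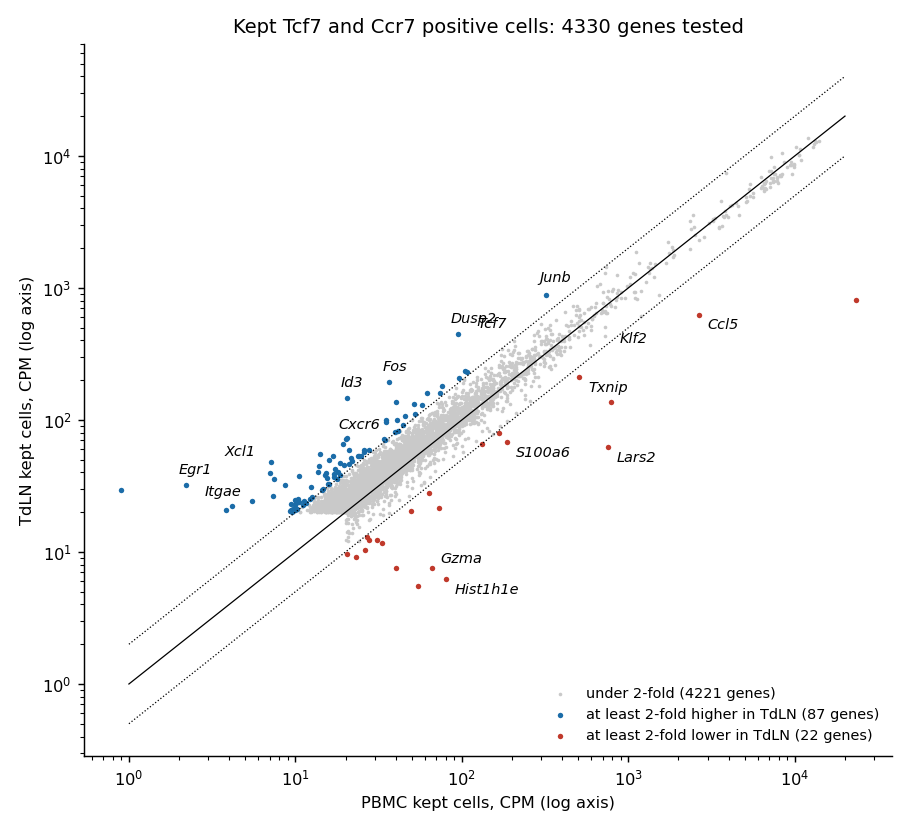
Each point is 1 of 4330 genes, placed by its CPM in the summed kept PBMC cells (x, log axis) and the summed kept TdLN cells (y, log axis), with the solid line at equality and dotted lines at 2-fold. The 87 genes at least 2-fold higher in TdLN lie above the upper dotted line and the 22 lower ones below the lower line.

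Immediate early genes stood higher in the node. Of 24 listed AP-1 and immediate early genes, 18 reached 20 CPM, and TdLN was at least 2-fold higher for 10 of them and lower for 0, where 2.01% of all genes compared were that much higher. With TMM it was 9 of them. The 10 were Fos, Fosb, Junb and Egr1, the phosphatase genes Dusp1, Dusp2, Dusp5 and Dusp10, and the RNA-decay genes Zfp36 and Zfp36l1. The median log2 ratio of the 18 was 1.30 (1.04 with TMM), against 0.25 for all genes. Fos, the AP-1 subunit that pairs with JUN proteins (chr12:85473890-85477273), was at 194 CPM (189–199) in TdLN, 36.7 CPM (34.2–39.3) in PBMC and 7.44 CPM (6.41–8.59) in memory cells. The TdLN level was 5.28-fold (4.91–5.68) higher than the PBMC level. Fosb, its close relative, was at 72.6 CPM (69.7–75.6) in TdLN, 20.4 CPM (18.6–22.4) in PBMC and 36.7 CPM (34.4–39.2) in memory cells, 3.56-fold (3.22–3.95) higher in TdLN. Junb, an AP-1 partner abundant in T cells (chr8:84974484-84978718), was at 882 CPM (872–893) in TdLN, 321 CPM (314–329) in PBMC and 167 CPM (162–172) in memory cells, 2.75-fold (2.68–2.82) higher in TdLN. Jun and Jund, other AP-1 partners, did not reach 2-fold. Jun stood at 252 CPM in TdLN and 199.7 in PBMC, and Jund at 639.8 CPM in TdLN and 539.7 in PBMC. Egr1, a zinc finger factor induced by the ERK pathway (chr18:34859823-34864984), had the highest ratio of these measured genes, 14.7-fold (11.1–20.1), at 32.4 CPM (30.4–34.4) in TdLN, 2.2 CPM (1.62–2.9) in PBMC and 3.62 CPM (2.92–4.45) in memory cells. Klf6, a zinc finger factor of the KLF family, lay lower in TdLN, at 155 CPM in TdLN and 239.5 in PBMC, and with TMM scaling Jund also fell just under 0. Levels of Fos, Junb and Dusp1 in memory cells were below those of PBMC, so PBMC lay between the node and the memory cells for these genes.

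The difference was spread over the cells. After thinning each cell to 4000 UMIs, a kept TdLN cell had UMIs of a median of 8 of the 24 genes (10th to 90th percentile 5 to 11), a PBMC cell 6 (3 to 8) and a memory cell 5 (2 to 7). The means were 8.17, 5.64 and 4.75. The 10 cells with most Fos held 3.08% of its UMIs in TdLN and 7.69% in PBMC. For Junb the shares were 1.44% and 2.75%. Node B cells, which were sparse in the library (59 cells, median 4352 UMIs), had Fos UMIs in 47.5% (34.3–60.9) and Junb UMIs in 78% (65.3–87.7). Macrophage-like cells had them in 13.8% (7.34–22.9) and 27.6% (18.5–38.2). Summed over the node B cells, Fos was at 545 CPM and Junb at 905 CPM. Summed over the macrophage-like cells, they were at 1078 and 677 CPM. What raised these genes in the node was not tested. The part of free RNA in the counts per cell was not tested. The log2 ratio of Fos was 2.41 without cells that carried 2 specific markers of another cell type, against 2.40 with them.

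**Figure D2:**
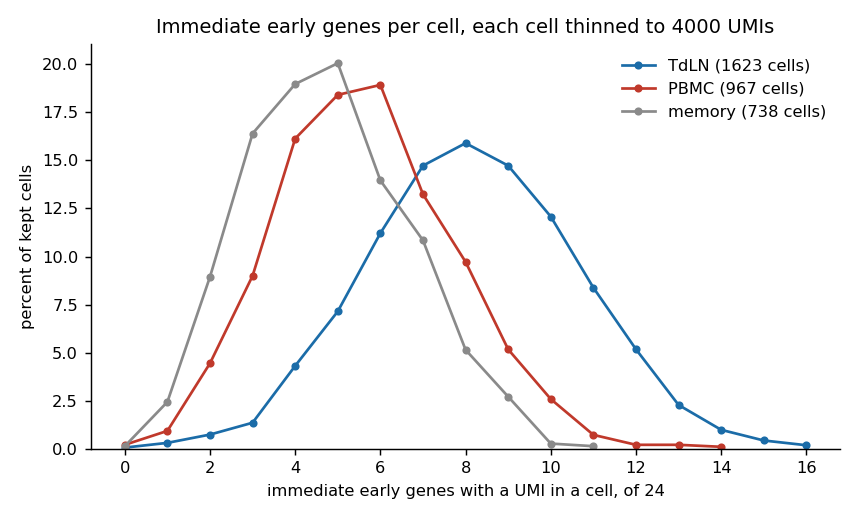
Percent of kept cells (y) by the number of 24 immediate early genes with a UMI in the cell (x), each cell thinned to 4000 UMIs, in 1623 TdLN, 967 PBMC and 738 memory cells. The TdLN curve peaks at 8 genes, the PBMC curve at 6 and the memory curve at 5, and the curves overlap.

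The list also holds genes that end MAP kinase signals or destroy short-lived RNAs. The Dusp and Zfp36 genes below are members of it, already counted above, and are not a separate result. Dusp2, a nuclear phosphatase of ERK and p38 (chr2:127336159-127338376), was at 450.3 CPM (443–458) in TdLN, 94.8 CPM (90.8–98.9) in PBMC and 65.2 CPM (62.1–68.4) in memory cells, 4.75-fold (4.54–4.97) higher in TdLN than in PBMC. Dusp1, a phosphatase of p38 and JNK (chr17:26505590-26562128), was at 96.7 CPM (93.3–100.1) in TdLN, 35.1 CPM (32.7–37.6) in PBMC and 9.95 CPM (8.75–11.3) in memory cells, 2.76-fold (2.55–2.98) higher. Dusp5, an ERK phosphatase, stood at 38.1 CPM in TdLN and 15 in PBMC and Dusp10, which acts on JNK and p38, at 39.5 CPM in TdLN and 15.3 in PBMC, and both passed 2-fold. Zfp36, which encodes tristetraprolin and shortens the life of AU-rich RNAs such as cytokine messages (chr7:28376784-28380253), was at 137 CPM (133–141) in TdLN, 40.3 CPM (37.7–43) in PBMC and 36.4 CPM (34.1–38.8) in memory cells, 3.4-fold (3.16–3.65) higher in TdLN. Its relative Zfp36l1 stood at 179 CPM in TdLN and 75.5 in PBMC, past 2-fold, and fell just short of it with TMM (log2 ratio 0.99). Zfp36l2, at 295 CPM in TdLN and 229 in PBMC, did not reach it.

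Promoters of these genes were read for the letters of 6 motifs on both strands in the 250 bases before the start (RefSeq, GRCm38.p6). 65 of the 87 node-high and 13 of the 22 node-low genes had an entry. An EGR site (GCGNGGGCG, the letters bound by EGR factors) was found in 12 of 65 promoters of node-high genes, 10.5% of the promoters of all genes compared and 4.7% of all 32851 promoters in the table. That is 18.5% of the node-high promoters, and the node-low promoters had it in 1 of 13. A cyclic AMP response element (TGACGTCA), bound by CREB, was found in 3 of 65 promoters of node-high genes, 3.66% of the promoters of all genes compared and 1.55% of all 32851 promoters in the table. An AP-1 site (TGANTCA) was found in 5 of 65 promoters of node-high genes, 4.5% of the promoters of all genes compared and 6.75% of all 32851 promoters in the table. The KLF letters CCACCC were in 32 of 65 node-high and 6 of 13 node-low promoters and in 35.9% of those of all genes compared, 28.1% of the table. TCF and LEF letters (CTTTGAA) were in 4, and NR4A letters (AAAGGTCA) in 2, of the 65 node-high promoters, or 6.15% and 3.08%. The shares were 3.92% and 1.15% over all genes compared, and 4.46% and 1.34% in the table. No motif contains another, and a match is only a run of letters, not a bound site. The stretches around the match in 4 of the genes described above are shown 5′ to 3′ to place the letters, with the EGR site in capitals in Fosb, Dusp2 and Zfp36 and the cyclic AMP response element in capitals in Dusp1.
Fosb (chr7:19310046-19310155, minus strand, match beginning 50 bases before the start): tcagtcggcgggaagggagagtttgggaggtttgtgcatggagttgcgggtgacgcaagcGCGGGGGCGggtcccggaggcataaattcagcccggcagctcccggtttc
Dusp2 (chr2:127336001-127336129, plus strand, match beginning 98 bases before the start): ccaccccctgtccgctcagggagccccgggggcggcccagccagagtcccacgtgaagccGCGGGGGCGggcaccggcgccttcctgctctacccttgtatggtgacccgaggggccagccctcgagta
Zfp36 (chr7:28379265-28379393, minus strand, match beginning 105 bases before the start): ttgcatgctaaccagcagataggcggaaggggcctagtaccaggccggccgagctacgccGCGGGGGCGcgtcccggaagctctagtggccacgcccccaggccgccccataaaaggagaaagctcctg
Dusp1 (chr17:26508548-26508675, minus strand, match beginning 143 bases before the start): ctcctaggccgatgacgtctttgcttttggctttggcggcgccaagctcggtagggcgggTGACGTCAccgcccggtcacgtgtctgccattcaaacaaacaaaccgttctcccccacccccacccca

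Genes that respond to the antigen receptor over minutes to hours followed the same direction, most of them at low level. Of 21 listed genes, 7 reached 20 CPM, with 3 at least 2-fold higher in TdLN, 0 lower and a median log2 ratio of 0.97. Of all genes compared, 2.01% and 0.508% were that much higher and lower. The 3 higher genes were Cd6, Icos and Xcl1, and with TMM only Xcl1 of the 7 stayed at least 2-fold higher. Cd6 and Xcl1 are also counted in other lists below. Of the 14 under the limit, 13 had at least 20 counts, and 11 of these were 2-fold or more higher in the node and 1 lower. Over all 5930 genes under the limit with at least 20 counts, 8.92% were that much higher and 2.75% lower. Nr4a1, the orphan receptor Nur77 that rises with receptor signal strength, was at 16.6 CPM in TdLN and 0.986 in PBMC. Summed over node B cells it was at 65.4 CPM, and over macrophage-like cells at 49.7 CPM. Nr4a2 was at 16.4 CPM in TdLN and 0.807 in PBMC and Nr4a3 at 8.95 CPM in TdLN and 0.672 in PBMC. Egr2 was at 5.82 CPM in TdLN and 0.134 in PBMC and Egr3 at 10.3 CPM in TdLN and 0.358 in PBMC, both EGR factors linked to tolerance. In the blood cells these 5 genes rested on 22, 18, 15, 3 and 8 counts, in the order given, and the ratio of Egr2 was 43.3-fold with a counting interval of 14.6 to 212. Tnfrsf9, the costimulatory receptor 4-1BB, was at 11.1 CPM in TdLN and 1.3 in PBMC. Cd69, the early activation marker that holds S1PR1 inside the cell, was at 396 CPM (389–403) in TdLN, 205 CPM (199.5–211) in PBMC and 66.9 CPM (63.7–70.2) in memory cells. Its log2 ratio of 0.95 was just short of 2-fold. Icos, a costimulatory receptor, was at 40.7 CPM (38.5–42.9) in TdLN, 18 CPM (16.3–19.8) in PBMC and 19.8 CPM (18.1–21.6) in memory cells, 2.26-fold (2.02–2.54) higher in TdLN, and at a log2 ratio of 0.92 with TMM it no longer reached 2-fold. Spry2, a brake on receptor tyrosine kinase signals, lay lower in TdLN with 1 count against 21 in PBMC, 30.6-fold, with a counting interval of the ratio of TdLN over PBMC of 0.000791 to 0.203.

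NF-kB target and feedback genes lay above the median of all genes in all 11 measured members, with a median log2 ratio of 0.83 (0.58 with TMM). TdLN was at least 2-fold higher for 2 of them, where 2.01% of all genes compared were that much higher. Nfkbid, an atypical IkB protein, was at 37.8 CPM (35.7–40.0) in TdLN, 10.4 CPM (9.14–11.9) in PBMC and 17.7 CPM (16.1–19.5) in memory cells, 3.62-fold (3.14–4.18) higher in TdLN. Bcl2a1b, a survival gene driven by NF-kB, was at 53.4 CPM (50.9–55.9) in TdLN, 16.8 CPM (15.1–18.5) in PBMC and 47.1 CPM (44.5–49.9) in memory cells, 3.18-fold (2.85–3.57) higher. Bcl2a1b has near-identical copies, so its reads may be split among them. Nfkbia, the IkB-alpha gene, was at 343 CPM in TdLN and 175 in PBMC, and Tnfaip3, which encodes the inhibitor A20, at 138 CPM in TdLN and 74.5 in PBMC. Both were under 2-fold. Gadd45b, a stress sensor upstream of p38, was at 55.5 CPM (53–58.2) in TdLN, 14 CPM (12.5–15.7) in PBMC and 14.8 CPM (13.3–16.4) in memory cells, 3.96-fold (3.51–4.48) higher in TdLN.

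Id3 had the highest ratio among the measured stem and memory regulators, in cells whose Tcf7 was nearly equal. It (chr4:136143497-136145755) was at 146 CPM (142–150.1) in TdLN, 20.5 CPM (18.7–22.5) in PBMC and 2.55 CPM (1.96–3.25) in memory cells, 7.11-fold (6.46–7.84) higher in TdLN than in PBMC. The order was node, then blood, then memory cells, with no overlap of the counting intervals. After thinning, 34.5% (32.2–36.9) of the TdLN and 6.62% (5.13–8.37) of the PBMC cells had an Id3 UMI, 55.7% and 16.7% without thinning. Macrophage-like node cells had one in 5.75% (1.89–12.9) of cells at a median of 2221 UMIs. By the same definition PBMC held no macrophage-like cells and no B cells, so the blood share has no background from its own library. Node B cells had one in 44.1% (31.2–57.6), and the log2 ratio was 2.80 without cells carrying 2 specific markers of another cell type, against 2.83. Tcf7 and Ccr7 chose the cells, and their levels are a description. Tcf7 was at 301 CPM (295–307) in TdLN, 289 CPM (282–296) in PBMC and 216 CPM (210.1–222) in memory cells, and Ccr7 at 243 CPM (237–248) in TdLN, 341 CPM (333–349) in PBMC and 148 CPM (144–153) in memory cells. The other 17 measured stem and memory regulators had a median log2 ratio of 0.06, with 1 at least 2-fold higher (Id3) and 1 lower (Klf3). Of all genes compared, 2.01% and 0.508% were that much higher and lower. Lef1, the partner of TCF-1 in the same family, was at 189 CPM (185–194) in TdLN, 185 CPM (179–190.3) in PBMC and 87.4 CPM (83.8–91.2) in memory cells. Slamf6, a surface marker of stem-like cells, was at 98.7 CPM (95.3–102) in TdLN, 102 CPM (97.9–106) in PBMC and 38.9 CPM (36.5–41.4) in memory cells. Bach2, a repressor of effector genes, was at 34.7 CPM (32.7–36.8) in TdLN, 33.2 CPM (30.9–35.7) in PBMC and 20.6 CPM (18.8–22.4) in memory cells. Myb, a factor of stem-like exhausted cells, was at 22.3 CPM (20.7–24) in TdLN, 16.2 CPM (14.6–17.9) in PBMC and 0.398 CPM (0.191–0.732) in memory cells. None of these 4 reached 2-fold between TdLN and PBMC, while all 4 lay below both in memory cells.

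Homing and egress genes differed in single members. Of 22 listed genes, 18 were measured, with 1 at least 2-fold higher and 1 lower, and a median log2 ratio of 0.36. Of all genes compared, 2.01% and 0.508% were that much higher and lower, with a median of 0.25. With TMM the list counts were 1 and 2 and the list median 0.10. Klf2, the factor that drives egress genes (chr8:72319033-72321656), was at 612 CPM (604–621) in TdLN, 1196 CPM (1181–1210) in PBMC and 641 CPM (631–651) in memory cells, 1.95-fold (1.92–1.99) lower in TdLN. That is a log2 ratio of -0.97, just short of 2-fold, and -1.22 with TMM. S1pr1, the egress receptor it drives, differed less. It was at 114 CPM (110.1–117) in TdLN, 132 CPM (128–137) in PBMC and 153 CPM (149–158) in memory cells, 1.16-fold (1.11–1.22) lower in TdLN. Klf3, a repressor of the same family, was at 79.1 CPM (76.1–82.3) in TdLN, 168 CPM (163–174) in PBMC and 118 CPM (114–123) in memory cells, 2.12-fold (2.02–2.23) lower in TdLN. Itga4, the alpha chain of the integrin VLA-4, was at 27.8 CPM (26–29.6) in TdLN, 63.4 CPM (60.2–66.8) in PBMC and 149.5 CPM (145–154) in memory cells, 2.29-fold (2.1–2.49) lower. Itgae, which encodes CD103, the E-cadherin binding integrin chain of resident T cells, was at 24.2 CPM (22.5–25.9) in TdLN, 5.47 CPM (4.54–6.53) in PBMC and 2.31 CPM (1.75–2.98) in memory cells, 4.42-fold (3.65–5.39) higher in TdLN. Cxcr6, a receptor for CXCL16 found on activated and resident T cells (chr9:123806475-123811760), was at 71.1 CPM (68.2–74) in TdLN, 20.1 CPM (18.3–22) in PBMC and 170.3 CPM (165–175) in memory cells, 3.54-fold (3.2–3.93) higher in TdLN. Among the cells left out by the rule, Cxcr6 was lower in TdLN, at a log2 ratio of -1.27, opposite to the kept cells.

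Secreted products split by gene. Xcl1, the chemokine that draws cross-presenting dendritic cells (chr1:164931644-164935527), was at 48.3 CPM (45.9–50.7) in TdLN, 7.17 CPM (6.1–8.37) in PBMC and 33.2 CPM (31–35.6) in memory cells, 6.73-fold (5.72–7.97) higher in TdLN. Ccl4, an inflammatory chemokine, was at 39.4 CPM (37.3–41.6) in TdLN, 7.03 CPM (5.98–8.23) in PBMC and 22.5 CPM (20.7–24.4) in memory cells, 5.6-fold (4.74–6.65) higher. Ifng, the interferon-gamma gene, was at 20.8 CPM (19.3–22.4) in TdLN, 3.81 CPM (3.04–4.71) in PBMC and 22.3 CPM (20.5–24.2) in memory cells, 5.46-fold (4.35–6.93) higher. Few cells carried them: 525 of 3109 TdLN cells had an Xcl1 UMI and 266 an Ifng UMI. The 10 cells with most UMIs held 37.5% of the Xcl1, 22.7% of the Ccl4 and 19.1% of the Ifng UMIs in TdLN. Ifng and Ccl4 were among the 8 of 87 node-high genes that lay lower in TdLN among the cells left out. Memory cells were not below PBMC for these 3 genes. Among cells of 7000 to 12000 UMIs the log2 ratio of Xcl1 was 1.91, against 2.75 in all kept cells, and with cells thinned to 4000 UMIs that of Ifng was 4.23, against 2.45.

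Ccl5, the chemokine RANTES stored by effector and memory CD8 T cells (chr11:83525778-83530518), went the other way. It was at 625 CPM (617–634) in TdLN, 2640 CPM (2618–2661) in PBMC and 12071 CPM (12028–12114) in memory cells, 4.22-fold (4.15–4.29) lower in TdLN than in PBMC. After thinning, 28.2% (26–30.5) of TdLN and 64.8% (61.7–67.9) of PBMC cells had a Ccl5 UMI, 41.2% and 89.3% without thinning. Node B cells, which should lack it, had one in 6.78% (1.88–16.5) at a median of 4352 UMIs. That background is of the node library only, none was measured for the blood, and Ccl5 over all PBMC cells was at 15515 CPM. The part of free RNA in the PBMC level was not tested. Gzma, which encodes the protease granzyme A (chr13:113093825-113100981), was at 7.57 CPM (6.65–8.58) in TdLN, 65.8 CPM (62.5–69.2) in PBMC and 0.557 CPM (0.305–0.935) in memory cells, 8.69-fold (7.59–9.99) lower in TdLN. It was held by few cells: 54 TdLN and 302 PBMC cells had a UMI, and the 10 highest held 80.9% and 36% of the UMIs. Among cells of 7000 to 12000 UMIs its log2 ratio was -1.30, and among those of 12000 to 20000 UMIs -5.19. Gzmm, granzyme M, was at 20.3 CPM (18.8–21.9) in TdLN, 49.4 CPM (46.5–52.4) in PBMC and 101 CPM (97.2–105) in memory cells, 2.44-fold (2.21–2.69) lower in TdLN. Of 10 measured cytotoxic genes, 1 (Ifng) was at least 2-fold higher and 2 lower, beside 2.01% and 0.508% of all genes compared. Prf1, the perforin gene, was at 49.3 CPM in TdLN and 36.1 in PBMC, and Nkg7, a granule membrane gene, at 977 CPM in TdLN and 808 in PBMC, both under 2-fold. Klrc1, the NKG2A receptor gene, which has close relatives beside it, was at 12.2 CPM (11.1–13.5) in TdLN, 31.1 CPM (28.8–33.5) in PBMC and 98 CPM (94.2–102) in memory cells, 2.54-fold (2.24–2.88) lower in TdLN.

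S100 genes, calcium-binding proteins that mark antigen-experienced T cells, were lower in TdLN in 2 of 13 measured S100, annexin and galectin genes, with none at least 2-fold higher (background 0.508% lower). The median log2 ratio of the group was -0.38, the lowest of the lists with 5 or more measured genes, and -0.64 with TMM. S100a6 was at 67.9 CPM (65.1–70.8) in TdLN, 185 CPM (179.9–191) in PBMC and 1849 CPM (1832–1866) in memory cells, 2.73-fold (2.59–2.88) lower in TdLN. S100a4 was at 7.57 CPM (6.65–8.58) in TdLN, 39.9 CPM (37.3–42.6) in PBMC and 189 CPM (183–194) in memory cells, 5.27-fold (4.57–6.1) lower. S100a10 was at 367 CPM in TdLN and 591 in PBMC and Ahnak, its large scaffold partner, at 63.3 CPM in TdLN and 99.7 in PBMC, both under 2-fold. Anxa5 and Anxa6, phospholipid-binding annexins, ran the other way, at 41.2 and 25.1 CPM and at 194 and 117 CPM in TdLN and PBMC, without reaching 2-fold. Cells with a Ccl5 UMI carried S100a6 more often in both libraries: 24.9% (21–29.1) against 4.21% (3.13–5.52) of TdLN cells without Ccl5, and 28.4% (24.9–32.1) against 7.94% (5.3–11.3) of PBMC cells, after thinning. Node B cells had an S100a6 UMI in 5.08% (1.06–14.1) of 59 cells at a median of 4352 UMIs. The part of free RNA in the S100a6 shares was not tested.

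Genes of the naive state stayed under 2-fold between the libraries. None of 17 measured naive T cell genes reached 2-fold (with TMM, Klf2 alone was past it, lower in TdLN), and their median log2 ratio of 0.25 was close to that of all genes. Igfbp4, a secreted binding protein of naive CD8 T cells, was at 120.1 CPM (116–124) in TdLN, 91.5 CPM (87.6–95.6) in PBMC and 0.995 CPM (0.644–1.47) in memory cells. Dapl1 was at 624 CPM in TdLN and 512 in PBMC and Actn1, a cytoskeletal crosslinker, at 106 CPM in TdLN and 119 in PBMC. At least 2 of these 3 genes had a UMI in 69.3% of kept TdLN, 67.4% of PBMC and 6.98% of memory cells. Cd44, whose protein was in the sort gate, was at 34.8 CPM (32.8–36.9) in TdLN, 32.4 CPM (30.1–34.8) in PBMC and 66.7 CPM (63.5–70.0) in memory cells, and 26.8% and 29.9% of the kept TdLN and PBMC cells had a UMI of it, both shares without thinning.

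Signalling components of the receptor complex differed in single genes. Of 28 measured CD3, CD8 and proximal signalling genes, 21 lay above the median of all genes. TdLN was at least 2-fold higher for 2 and lower for 0, beside 2.01% and 0.508% of all genes compared. With TMM it was higher for 1. Ptpn6, which encodes the phosphatase SHP-1, a brake on receptor signalling, was at 159 CPM (154–163) in TdLN, 61.5 CPM (58.3–64.9) in PBMC and 79.7 CPM (76.3–83.3) in memory cells, 2.58-fold (2.43–2.74) higher in TdLN. Cd6, a receptor for ALCAM, was at 91.3 CPM (88–94.6) in TdLN, 44.5 CPM (41.8–47.4) in PBMC and 48.5 CPM (45.8–51.3) in memory cells, 2.05-fold (1.91–2.2) higher, and under 2-fold with TMM (log2 ratio 0.78). Cd5, a negative regulator whose level follows receptor signal strength, was at 83 CPM in TdLN and 42.7 in PBMC, with a log2 ratio of 0.96. Zap70, the receptor-proximal kinase, was at 103 CPM in TdLN and 57.9 in PBMC, also under 2-fold. Cd3d and Cd8b1, at 1067 and 1029 CPM and at 1034 and 983 CPM in TdLN and PBMC, were close to equal. Il6st, the shared receptor chain gp130, was at 71 CPM (68.1–73.9) in TdLN, 34.5 CPM (32.2–37.1) in PBMC and 16.1 CPM (14.5–17.7) in memory cells, and Il21r at 71.8 CPM (68.9–74.8) in TdLN, 34.2 CPM (31.8–36.7) in PBMC and 36.7 CPM (34.4–39.1) in memory cells. Both passed 2-fold and fell short of it with TMM, at log2 ratios of 0.78 and 0.82. Il18r1, a receptor chain of memory and effector cells, was at 41 CPM (38.8–43.3) in TdLN, 69.3 CPM (65.9–72.9) in PBMC and 246 CPM (240.3–253) in memory cells, 1.69-fold (1.57–1.82) lower in TdLN. With TMM it passed 2-fold, at a log2 ratio of -1.01.

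Genes linked to anergy and precursor exhaustion went both ways, with more of them higher in TdLN. Of 23 found, 6 reached 20 CPM, with 3 at least 2-fold higher (Tox, Cd160, Xcl1) and 1 lower (Nt5e). Of all genes compared, 2.01% and 0.508% were that much higher and lower. With TMM the list counts were 2 and 1. The list median log2 ratio was 0.59, against 0.25 for all genes, and 0.33 with TMM. Tox, the factor of chronically stimulated T cells, was at 37 CPM (34.9–39.1) in TdLN, 17 CPM (15.4–18.8) in PBMC and 4.18 CPM (3.42–5.06) in memory cells, 2.17-fold (1.93–2.44) higher in TdLN, and at a log2 ratio of 0.86 with TMM. Cd160, an inhibitory receptor, was at 42.6 CPM (40.4–44.9) in TdLN, 17.2 CPM (15.5–19) in PBMC and 43.4 CPM (40.9–46.1) in memory cells, 2.48-fold (2.21–2.78) higher. Nt5e, which encodes the ectoenzyme CD73, was at 9.14 CPM (8.13–10.2) in TdLN, 23 CPM (21–25.1) in PBMC and 29.5 CPM (27.4–31.7) in memory cells, 2.52-fold (2.18–2.91) lower. Of the 17 under the limit, 13 had at least 20 counts, with 8 at least 2-fold higher and 0 lower, beside the 8.92% and 2.75% of all such genes. Among them Ctla4 was at 19.8 CPM in TdLN and 4.75 in PBMC, Izumo1r (folate receptor 4) at 14.1 CPM in TdLN and 4.53 in PBMC and Ikzf2 (Helios) at 17.8 CPM in TdLN and 7.62 in PBMC. Cd101, Cxcr5 and Entpd1 lay lower in TdLN and under 2-fold, at 4.31 CPM in TdLN and 6.54 in PBMC, at 8.65 CPM in TdLN and 10.8 in PBMC and at 1.08 CPM in TdLN and 1.57 in PBMC. Pdcd1, which encodes PD-1, was at 1.02 CPM (0.699–1.43) in TdLN and 0.358 CPM (0.155–0.706) in PBMC. At least 2 of Izumo1r, Ikzf2, Ctla4 and Myb had a UMI in 10.4% of the kept TdLN and 4.77% of the kept PBMC cells. Without those cells, the log2 ratio of Id3 was 2.80 and that of Tox 1.04.

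Genes that restrain growth went both ways. Of 19 measured, 9 were higher in TdLN by some amount, and the median log2 ratio was -0.03. At least 2-fold apart were 1 higher (Tob2) and 2 lower (Txnip, Klf3), beside 2.01% and 0.508% of all genes compared. With TMM the counts at 2-fold were 1 and 5. Txnip, which limits glucose uptake and is a target of FOXO factors, was at 211 CPM (206–216) in TdLN, 507 CPM (497–516) in PBMC and 322 CPM (315–329) in memory cells, 2.4-fold (2.33–2.47) lower in TdLN. Tsc22d3, the glucocorticoid-induced gene GILZ, was at 113 CPM in TdLN and 212 in PBMC, and Cdkn1b, the cell-cycle inhibitor p27, at 69.1 CPM in TdLN and 122 in PBMC. Both were under 2-fold with library totals and among the 5 lower with TMM. Glycolysis genes lay above the median of all genes in 10 of 11 members, with a median log2 ratio of 0.61 and none past 2-fold. Pkm, the last enzyme of that pathway, was at 187 CPM in TdLN and 112 in PBMC. Nuclear oxidative phosphorylation genes had a median of -0.00 over 30 members, below the median of all genes, and -0.25 with TMM. Interferon-response genes, thinned out by the rule itself, had a median of 0.07 over 29 members with none past 2-fold.

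A last group of blood-high genes was lower in TdLN in kept and left-out cells alike, and higher still in memory cells. Hist1h1e, a linker histone, was at 6.22 CPM (5.39–7.13) in TdLN, 80.2 CPM (76.5–84) in PBMC and 103 CPM (99.3–107) in memory cells, 12.9-fold (11.2–15) lower in TdLN. Hist1h4d and Hist1h1c were 9.88-fold (8.44–11.6) and 3.43-fold (3.13–3.75) lower, with Hist1h4d at 54.4 CPM in PBMC and 124 in memory cells and Hist1h1c at 73.2 and 93.9. Hist1h4d has copies of near-identical coding sequence. Lars2, annotated as a mitochondrial leucyl-tRNA synthetase (chr9:123366927-123462666), was at 62.1 CPM (59.4–64.8) in TdLN, 754 CPM (743–766) in PBMC and 1242 CPM (1228–1255) in memory cells, 12.2-fold (11.6–12.7) lower. Gm42418 is a predicted gene in ribosomal RNA sequence, chosen here after its values were seen. Its share of the kept counts was 0.0808% in the node, 2.32% in the blood and 3.64% in memory cells. Gm26917, another predicted gene chosen after its values were seen, went the other way, at 235 CPM in TdLN and 104 in PBMC. Of the genes past 2-fold that the naming rule leaves out, predicted genes among them, 3 were higher in TdLN and 5 lower. Among the left-out cells the log2 ratios were -3.45 for Hist1h1e and -4.02 for Lars2. Library and tissue cannot be told apart here. By contrast H3f3a, a histone gene with polyadenylated RNA, was at 956 CPM in TdLN and 866 in PBMC.

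**Figure D3:**
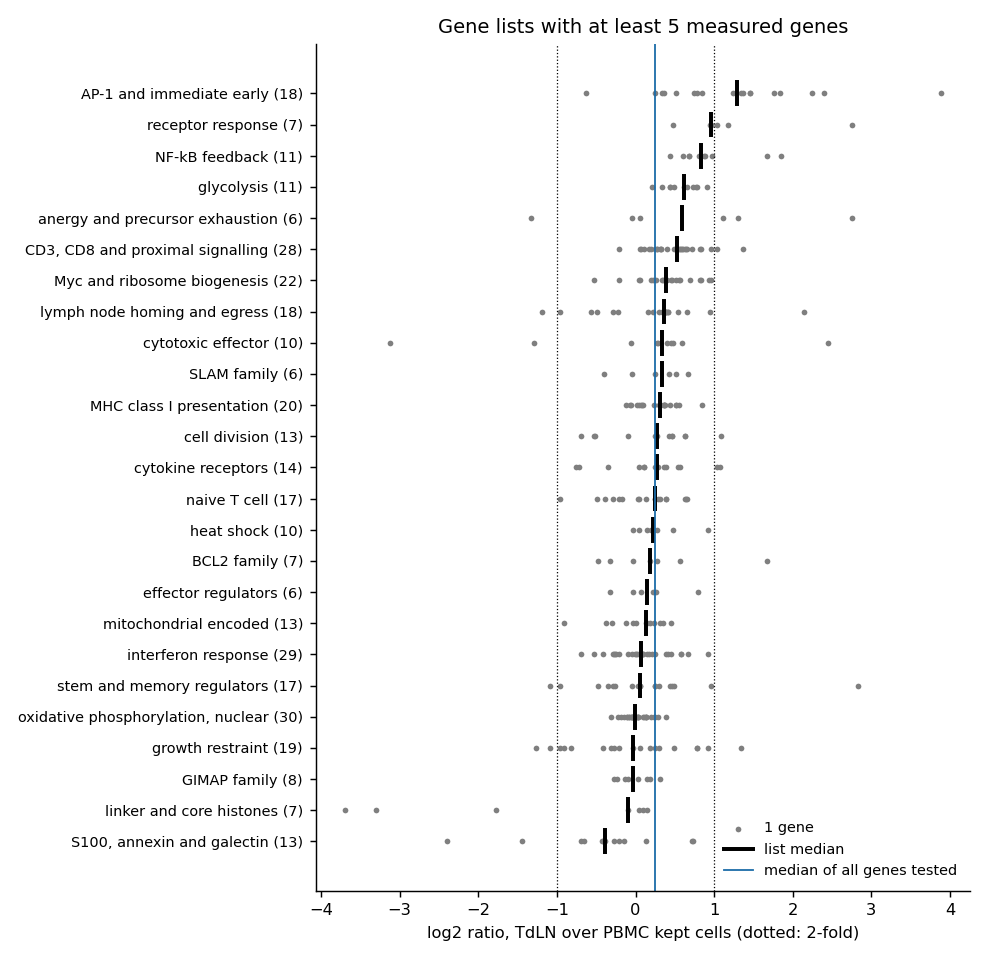
Log2 ratio of the summed kept cells, TdLN over PBMC (x), for each measured gene (grey points) of 25 lists with at least 5 measured genes (number in parentheses), with the list median as a black bar, the median of all genes as a blue line and 2-fold as dotted lines. The AP-1 and immediate early list has the highest median, 1.30, and the S100, annexin and galectin list the lowest, -0.38.

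The ratios of the 13 genes plotted kept their direction in the 10 subsets plotted. Id3 had log2 ratios of 2.22, 2.80 and 3.15 in cells with 1, with 2 to 3 and with 4 or more Tcf7 UMIs. Fos had 2.5, 2.63 and 2.15 in the same subsets. Ccl5 had -2.35, -1.89 and -2.32. PBMC kept cells were deeper, with 54.4% of them at 12000 to 20000 UMIs against 17.4% in TdLN. Among cells of 7000 to 12000 UMIs the log2 ratio was 2.49 for Id3, 2.01 for Dusp2, -1.92 for Ccl5 and -0.98 for Klf2. Cells with Trbv13-3 as their only beta V segment gave 2.87 for Id3, 2.38 for Fos and -2.11 for Ccl5. Naive-like cells with an Igfbp4 UMI gave 2.96 for Id3 and -2.11 for Ccl5, close to the 2.76 and -2.05 of cells without one. The Ccl5 level itself differed between these subsets: 281 and 916 CPM with and without Igfbp4 in TdLN, and 1217 and 3793 in PBMC. Cxcr6 varied more, from 1.09 in cells with 1 Tcf7 UMI to 2.43 in cells with Igfbp4. The plot of ratios within subsets shows Gzma as the most scattered of these genes.

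**Figure D4:**
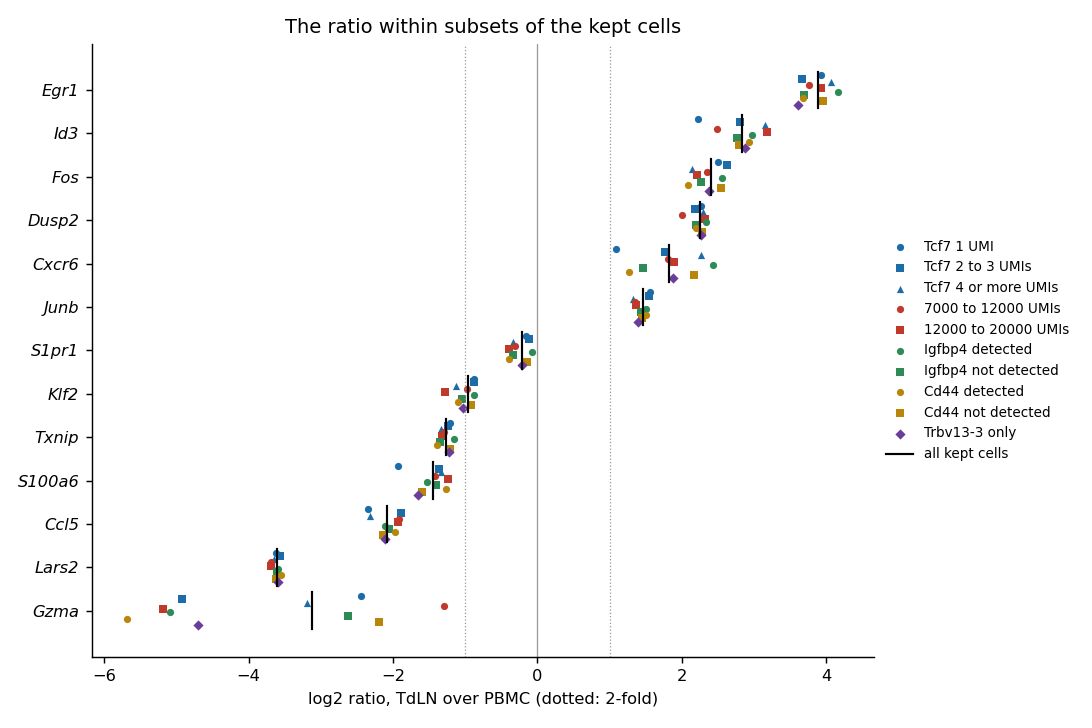
Log2 ratio of summed counts, TdLN over PBMC (x), for 13 genes (rows) in 10 subsets of the kept cells (coloured points) and in all kept cells (black bars), with dotted lines at 2-fold. Egr1, Id3, Fos, Dusp2, Cxcr6 and Junb stay right of 2-fold in every subset drawn, S1pr1 stays near 0, and Gzma ranges from -5.68 to -1.30.

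The cells left out by the rule differed in more genes between the 2 libraries. They were unlike populations, since Trbv13-3 made up 88.9% of the beta V segment UMIs of the left-out TdLN cells and 51.4% of those of the left-out PBMC cells, at median depths of 9612 and 5612 UMIs. Among them 232 genes (4.76% of 4877) stood at least 2-fold higher in TdLN, and 180 (3.69%) stood lower. Of the 87 node-high genes of the kept cells, 44 (50.6%) were also at least 2-fold higher among the left-out cells. Of the 22 node-low genes, 17 (77.3%) were also at least 2-fold lower there. These counts set no level limit in the left-out cells, so they are not parts of the 232 and 180. Ccl5 had a log2 ratio of -2.08 in the kept and -4.95 in the left-out cells, and S100a4 -2.40 and -4.48. Dusp2 had 2.25 in the kept and 0.94 in the left-out cells, and Junb 1.46 and 1.53. The gap in Ccl5 and S100a4 was thus smaller among the kept cells, that in Junb similar and that in Dusp2 larger. The differences between the pairs of ratios were not tested, since each side is 1 library.

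Memory cells chosen by the same rule were set beside both libraries as a reference of another day and sort gate. Memory cells lay nearer to PBMC than to TdLN on the log scale for 63 of the 87 node-high and 17 of the 22 node-low genes. These genes were chosen for their gap between TdLN and PBMC, so the counts are a description. Among genes under 2-fold, memory cells lay nearer to PBMC for 52.6% of those higher in TdLN and 50.8% of those lower. PBMC lay between TdLN and memory cells for 28 of the 87 (32.2%) and 14 of the 22 (63.6%), against 26.7% and 40.6% of the genes under 2-fold on the same side. Id3, Fos, Junb, Dusp1, Dusp2, Tox and Itgae ran in the order TdLN, PBMC, memory from high to low. Ccl5, S100a4, S100a6, Gzmm, Itga4 and Klrc1 ran in the same order from low to high. Gzma did not, since memory cells had the lowest level. Cxcr6 was highest in memory cells, and Klf2 and Txnip were highest in PBMC. The plot of levels by library shows these orders gene by gene.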

How the data were processed

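Sorted P14 CD8 T cells had been sequenced as single cells from the 3′ end of their RNA (10x Genomics), 1 library per group. The files deposited by the authors hold raw UMI counts, whole numbers for each gene and barcode without normalization. They came from Cell Ranger 3.1.0 and mm10, per the submitters' processing notes. Barcodes had been called as cells by the authors: 7503 in TdLN, 6165 in PBMC and 8321 in memory. Doublets were neither called nor removed here. Gene coordinates came from GENCODE M21 (GRCm38), which held 30934 of 31053 gene IDs. Promoter sequences came from RefSeq.

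Counts of the kept cells were summed per library and divided by their total (CPM). Intervals are exact Poisson for a CPM, exact conditional binomial for a ratio and Clopper-Pearson for a share, each at 95% (scipy 1.17.1). PCR copies are merged by UMI, and the intervals cover counting error only, not the spread between animals. No p-value was computed. A count of 0 allows up to 0.0923 CPM in TdLN and 0.134 in PBMC (3 counts). A gene was compared when it reached 20 CPM in the higher library, and a ratio of 2-fold either way was counted. TMM (edgeR 4.0.16) and DESeq2 1.42.0 size factors were computed on the summed counts as other scalings, with no model test. On simulated Poisson counts of the same 4330 genes, the ratio recovered 99 of 100 genes set at 2.5-fold and 100 of 100 at 5-fold, and called 0 of 4130 unchanged genes. Those counts had no shift between libraries, no clumping in few cells and no spread between animals. They check the arithmetic only and cannot show how reliable the calls are.

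The rule for named genes took the 12 largest ratios in each direction among genes reaching 50 CPM, a panel of 20 and up to 4 genes of each of 31 lists. Other members of those lists, and Gm42418 and Gm26917, were named after their values were seen. The members, the lists and the panel were chosen with earlier results of these data known, so no list is independent support. The rule used Tcf7, Ccr7, the 3 division and the 6 interferon genes, and their ratios are description only. Alternatives varied the scaling, the level limit, the cell limits, the rule and the cell subset. 2 were added after seeing the data: leaving out cells with 2 markers of another cell type from lists limited to genes that T cells lack, and using only cells of 7000 to 12000 UMIs. Some genes of the rule and lists are not reported here.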

Additional observations from a re-analysis of the deposited data

How the results depend on the processing

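No paired analysis was possible because each group was 1 library and the labels carry no replicate numbers. The 87 genes at least 2-fold higher and 22 lower became 38 and 48 with TMM, 38 and 52 with DESeq2 size factors, and 117 and 50 with totals without ribosomal and mitochondrial genes. That last scaling brought 6398 genes past 20 CPM, and over the same 4330 genes it gave 65 and 28. TMM and DESeq2 size factors brought 4209 and 4212 genes past 20 CPM. Over the same 4330 genes TMM gave 39 and 44, and DESeq2 size factors 39 and 46. The 87 and 22 became 236 and 71 with a limit of 5 CPM, 17 and 8 with 100 CPM, and 1274 and 736 with none. The other alternatives, cell subsets included, gave 80 to 125 higher and 21 to 26 lower. The planned removal of cells with 2 markers of another cell type took 64.9% of TdLN and 60.7% of PBMC cells, since Ctss, Trdc and Ighm were in most cells. The added, stricter lists took 2.61% and 2.47% and gave 87 higher and 21 lower.

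Of 44 named genes past 2-fold, none reversed under the 20 alternatives tried and 36 stayed at least 2-fold apart under all. The other 8, which fell short under at least 1 of them, were Atp2b1, Cd160, Cd6, Icos, Il21r, Il6st, Tox and Tuba1b. The share kept was 25.9% in TdLN and 22.3% in PBMC with at least 2 UMIs of Tcf7 and Ccr7, and 26.7% and 18.3% with cells thinned to 4000 UMIs. Limits of 1000 genes and 5% mitochondrial counts gave 28.8% in PBMC. Each level rests on 1 library, so differences between animals cannot be seen at any depth.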
